A study of Mus musculus with 8 samples.

Results

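The integrated stress response and the unfolded protein response were followed in mouse 2-cell embryos through 10 genes of the ATF4, CHOP and IRE1 pathways: Atf4, Ddit3, Trib3, Sesn2, Ppp1r15a, Ppp1r15b, Asns, Chac1, Xbp1 and Ern1. They were chosen by name, with earlier results of these data known, and all 10 were found among the 37310 genes of the table. Embryos at this stage came from fertilized mouse eggs kept in G1 medium. The 4 control libraries came from embryos in medium with the solvent DMSO, and the 4 treated libraries from embryos in medium with 6 µM triclocarban, an antibacterial compound of soaps and personal care products. The strain and the number of embryos behind a library are not stated. Nothing says that libraries of 1 group stem from separate cultures, so p-values cover only the spread among libraries, part of which may be technical.

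Cells slow translation when the initiation factor eIF2 is phosphorylated on its alpha subunit, by PERK in endoplasmic reticulum (ER) stress, by GCN2 when amino acids are short, by HRI in heme shortage or mitochondrial stress, or by PKR when double-stranded RNA is present. Translation of the ATF4 mRNA rises under these conditions, and ATF4 then activates genes for amino acid supply, for the transcription factor CHOP (gene Ddit3) and for feedback inhibitors. IRE1 alpha (gene Ern1) is an ER sensor that splices the Xbp1 mRNA, and the resulting factor raises the folding capacity of the ER. Control of ATF4 by translation, phosphorylation of eIF2 and splicing of Xbp1 do not show in a transcript level per gene, and none of them was measured here.

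Levels were in FPKM, fragment counts divided by transcript length and by the library's mapped fragments, and are thus shares of the polyadenylated RNA in a library. The amount per embryo was therefore not measured, and fewer cells and less RNA per cell cannot be told apart. Of 12941 genes tested with limma on log2(FPKM + 1), 3981 (30.8%) were lower and 1466 (11.3%) higher with triclocarban at a Benjamini-Hochberg adjusted p under 0.05. The median log2 change of all genes tested was -0.19, against 0.06 when libraries were scaled by median of ratios and 0.14 when they were quantile normalized. Median-of-ratios scaling gave 3187 lower and 2637 higher genes, and quantile normalization 2847 and 2915. The controls differed in pairs. Without controls 1 and 2, 4213 genes were lower and 2838 higher, and without controls 3 and 4, 3243 and 695. Triclocarban library 2 had the lowest depth by a rough estimate, 7000000 fragments, against 10600000 to 14900000 in the other libraries. Genes at 1 FPKM or more numbered 12828 to 13541 in controls and 11788 to 11957 with triclocarban, and mitochondrial transcripts made up 16.6 to 24.3% and 11.1 to 17.6% of the FPKM. Of 8 oocyte and 2-cell embryo markers, 5 were higher (Bmp15, Zar1, Nlrp5, Dppa3 and Oosp1) and 1 lower (Zfp352, 218.3 and 106.4 FPKM). Gdf9 and Zscan4d did not pass. Their summed FPKM, all 8 together, was 4893 to 5579 in controls and 7583 to 10352 with triclocarban. Dppa3 (2518 and 4668) and Oosp1 (1672 and 2838) had the highest means in it. The 11 cumulus and granulosa cell markers summed to 5.18 to 10.1 FPKM in controls and 9.88 to 18.1 with triclocarban, with Amh and Lhcgr at 0 in every library. Of the 3 tested, Tnfaip6 was lower (3.30 and 0.331 FPKM) and Cyp19a1 (2.34 and 8.33) and Fshr (0.921 and 3.04) were higher. Tnfaip6 passed the filter of 1 FPKM in 4 libraries only through the controls and so had to differ. The 5 blood markers summed to 54.3 to 95.9 and 8.44 to 32.1 FPKM, nearly all of it from the alpha globin genes Hba-a1 and Hba-a2, with Hbb-bs and Hbb-bt at 0 in every library and Ptprc at 0.04 FPKM or less. The 4 sperm markers summed to 1.12 to 5.13 and 6.87 to 9.31 FPKM, and the 6 markers of later embryo lineages to 3.12 to 6.70 and 4.52 to 7.82. Nearly all of the sperm sum came from Prm2 (2.24 and 7.73 FPKM), the only 1 of the 4 tested, which was higher. The later-lineage sum of 7.82, in triclocarban library 2, held Nanog at 5.46 FPKM, against 0.6 or less in every other library. The part of these differences in the results was not tested.

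Of the 10 genes, 6 were lower with triclocarban, 0 were higher and 4 did not pass the threshold. Of all genes tested, 30.8% were lower and 11.3% higher. Trib3, Sesn2, Ppp1r15a and Ppp1r15b fell by 7.32-fold to 14.0-fold in mean FPKM, Asns and Atf4 fell less on the log2 scale, and Ddit3, Chac1, Xbp1 and Ern1 did not pass. The 6 that passed were also those whose treated libraries all lay below all controls, where 30.0% of all genes tested lay below and 10.2% above. All 10 genes passed the filter of 1 FPKM in 4 libraries, but Asns passed it only through the controls and so had to differ. The median log2 change of the 10 was -0.87, beside -0.19 for all genes tested. The falls of Trib3, Sesn2, Ppp1r15a and Ppp1r15b passed the threshold under each of the 20 alternative settings tried.

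**Figure D1:**
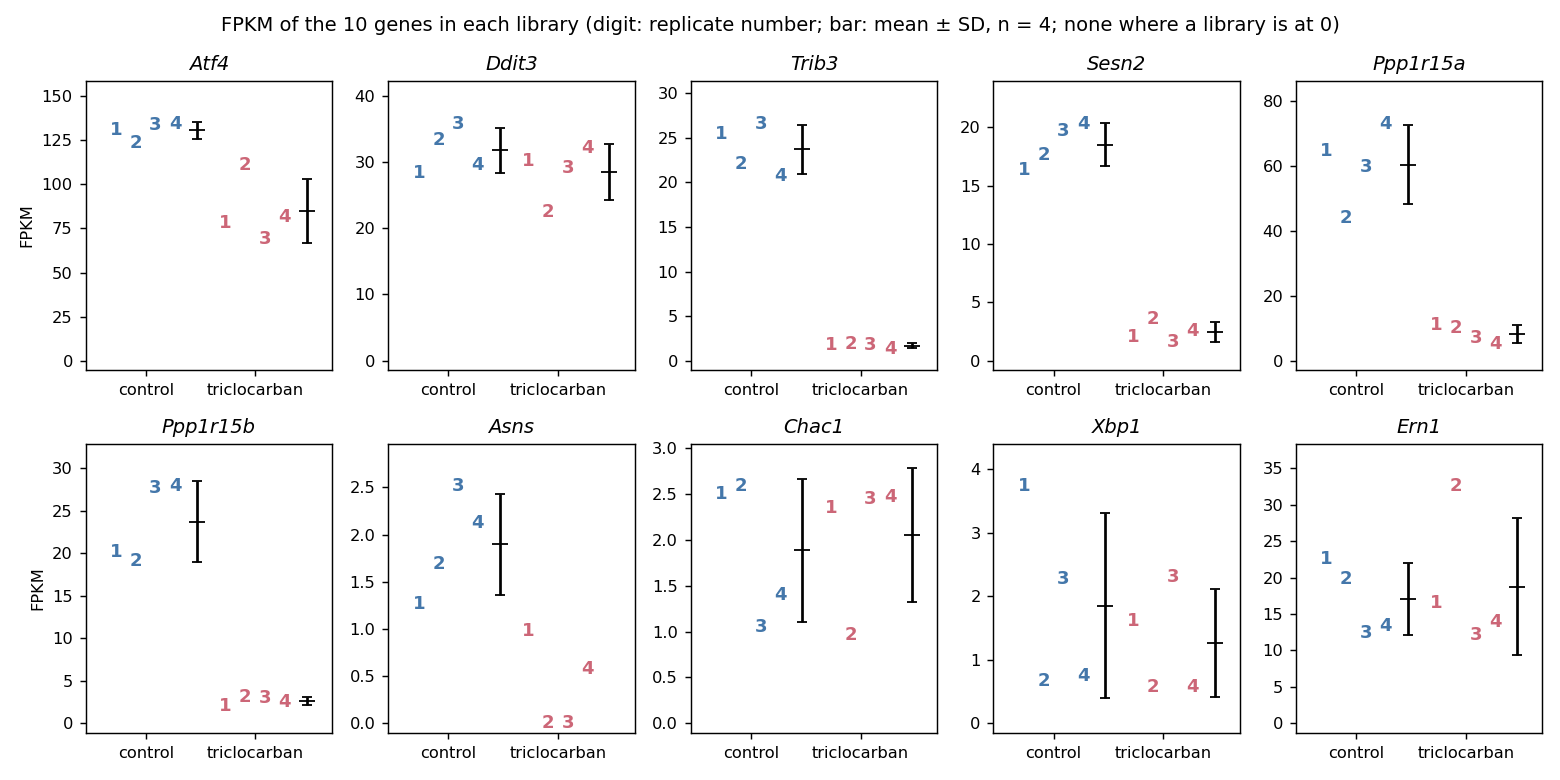
FPKM (linear axis) of each of the 10 genes in 4 control and 4 triclocarban libraries, with each library drawn as its replicate number and the mean ± SD beside it, except for Asns with triclocarban, where libraries 2 and 3 are at 0. The groups stand far apart for Trib3, Sesn2, Ppp1r15a and Ppp1r15b and overlap for Ddit3, Chac1, Xbp1 and Ern1.

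Atf4 encodes the transcription factor at the centre of the response (ENSMUSG00000042406.6, chromosome 15, 80255184 to 80257541, plus strand, GRCm38). Its FPKM was 130.90, 123.64, 133.49 and 134.33 in controls (replicates 1 to 4, here and below in this order) and 77.82, 110.68, 69.01 and 81.65 with triclocarban. The controls lay close together and above all treated libraries, of which library 2 was nearest to them. The log2 change was -0.64 (SE 0.24, limma adjusted p = 0.0474), a 1.54-fold lower mean. This call was lost in 13 of the 20 alternatives, where the adjusted p ranged from 0.0502 to 0.287: in median-of-ratios scaling, where the change was -0.34, in quantile normalization (-0.58), with nuclear genes only, with the replicate number as a block (adjusted p = 0.0748), without each control and each treated library except triclocarban library 2, and without either pair of controls. Without triclocarban library 2 the change was -0.77 (adjusted p = 0.00845).

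Ddit3, the gene of CHOP, a factor that ATF4 induces and that promotes cell death in lasting stress (ENSMUSG00000025408.9, chromosome 10, 127290774 to 127296288, plus strand), had 28.31, 33.23, 35.76 and 29.57 FPKM in the controls and 30.18, 22.50, 29.12 and 32.12 with triclocarban. The groups overlapped. The log2 change was -0.16 with a 95% interval of -0.67 to 0.35 (limma adjusted p = 0.622), turning to 0.14 under median-of-ratios scaling and 0.13 under quantile normalization. Exons of the methionyl-tRNA synthetase gene Mars cover 3.97% of the exon length of Ddit3 on the other strand. How strand was handled in the counting is not stated, so reads from these bases cannot be assigned to 1 of these genes. Another protein-coding entry, also named Ddit3, covers 6.13% of the exon length on the same strand. It has no FPKM values of its own.

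The deepest fall was that of Trib3, a pseudokinase gene that CHOP and ATF4 induce and whose product restrains both (ENSMUSG00000032715.8, chromosome 2, 152337422 to 152344032, minus strand). It was at 25.45, 22.09, 26.57 and 20.75 FPKM in the controls and at 1.78, 1.88, 1.81 and 1.3 with triclocarban. Every control was above 20 and every treated library below 2. The mean went from 23.7 ± 2.74 to 1.69 ± 0.26 (SD, n = 4 each), 14.0-fold lower, a log2 change of -3.20 (SE 0.23, limma adjusted p = 3.09e-05). Only 0.896% of all genes tested fell as far or farther. Across the alternatives the change lay between -3.74 and -2.10.

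Sesn2, whose product sestrin 2 holds back the growth kinase complex mTORC1 when amino acids such as leucine are short (ENSMUSG00000028893.8, chromosome 4, 132492032 to 132510501, minus strand), had 16.37, 17.67, 19.70 and 20.32 FPKM in the controls and 2.00, 3.61, 1.63 and 2.55 with triclocarban. The groups were wide apart, and triclocarban library 2 was the highest of the treated ones. The mean went from 18.5 ± 1.82 to 2.45 ± 0.86 (SD, n = 4 each), a log2 change of -2.53 (SE 0.26, limma adjusted p = 5.92e-05).

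Asns and Chac1, both induced by ATF4 in other cells, were low. Asns, which makes asparagine (ENSMUSG00000029752.6, chromosome 6, 7675169 to 7693254, minus strand), had 1.26, 1.69, 2.51 and 2.12 FPKM in the controls and 0.98, 0, 0 and 0.58 with triclocarban. The treated libraries all lay below the controls, and 2 of them were listed at 0. The log2 change of -1.10 (standard error 0.27, limma adjusted p = 0.00656) was lost as a call in quantile normalization (-0.72, adjusted p = 0.0669) and without controls 3 and 4 (-0.89, adjusted p = 0.0648), and with a pseudocount of 0.1 it was -2.73. Chac1, a glutathione-degrading enzyme (ENSMUSG00000027313.3, chromosome 2, 119351229 to 119354381, plus strand), had 2.50, 2.58, 1.05 and 1.40 FPKM in the controls and 2.34, 0.96, 2.44 and 2.47 with triclocarban. Its groups overlapped, and the 95% interval of its log2 change of 0.09 ran from -0.53 to 0.70 (limma adjusted p = 0.836).

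The genes for the regulatory subunits that lead protein phosphatase 1 to eIF2 alpha fell together. Ppp1r15a, the stress-induced subunit GADD34 (ENSMUSG00000040435.9, chromosome 7, 45522916 to 45526268, minus strand), had 64.75, 44.03, 59.73 and 73.06 FPKM in the controls and 11.06, 10.02, 6.87 and 5.08 with triclocarban. Even the lowest control stood far above the highest treated library. The mean was 60.4 ± 12.2 and 8.26 ± 2.77 (SD, n = 4 each), a log2 change of -2.76 (SE 0.29, limma adjusted p = 7.05e-05). Ppp1r15b, the constitutive subunit CReP (ENSMUSG00000046062.4, chromosome 1, 133131143 to 133139783, plus strand), had 20.16, 19.11, 27.72 and 27.87 FPKM in the controls and 2.00, 3.05, 3.02 and 2.47 with triclocarban. Controls 1 and 2 lay below controls 3 and 4, and all 4 far above the treated libraries. The mean was 23.7 ± 4.73 and 2.63 ± 0.50, a log2 change of -2.76 (SE 0.25, limma adjusted p = 4.82e-05). An unconfirmed transcript model, Gm26616, covers 11.4% of the exon length of Ppp1r15b on the other strand. Of the catalytic subunits that these proteins bind, Ppp1cc fell from 75.2 ± 27.9 to 24.0 ± 4.09 FPKM (adjusted p = 0.00202), and Ppp1ca and Ppp1cb did not pass the threshold.

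Neither Ern1 nor Xbp1 showed a change that passed the threshold. Ern1 (ENSMUSG00000020715.3, chromosome 11, 106394650 to 106487852, minus strand) had 22.51, 19.86, 12.40 and 13.31 FPKM in the controls and 16.55, 32.50, 12.08 and 13.95 with triclocarban. Controls 1 and 2 were above controls 3 and 4, and triclocarban library 2 stood above all others. The log2 change was 0.07 with a 95% interval of -0.67 to 0.81 (limma adjusted p = 0.885), and -0.22 without triclocarban library 2. Xbp1 (ENSMUSG00000020484.11, chromosome 11, 5520659 to 5525893, plus strand) had 3.73, 0.66, 2.28 and 0.74 FPKM in the controls and 1.61, 0.58, 2.31 and 0.58 with triclocarban. In both groups, libraries 1 and 3 lay above libraries 2 and 4, and the 95% interval of the log2 change of -0.26 ran from -1.09 to 0.56 (limma adjusted p = 0.606). Ern2, the relative of Ern1 known from gut epithelium, was at 0.24 FPKM or less in every library.

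**Figure D2:**
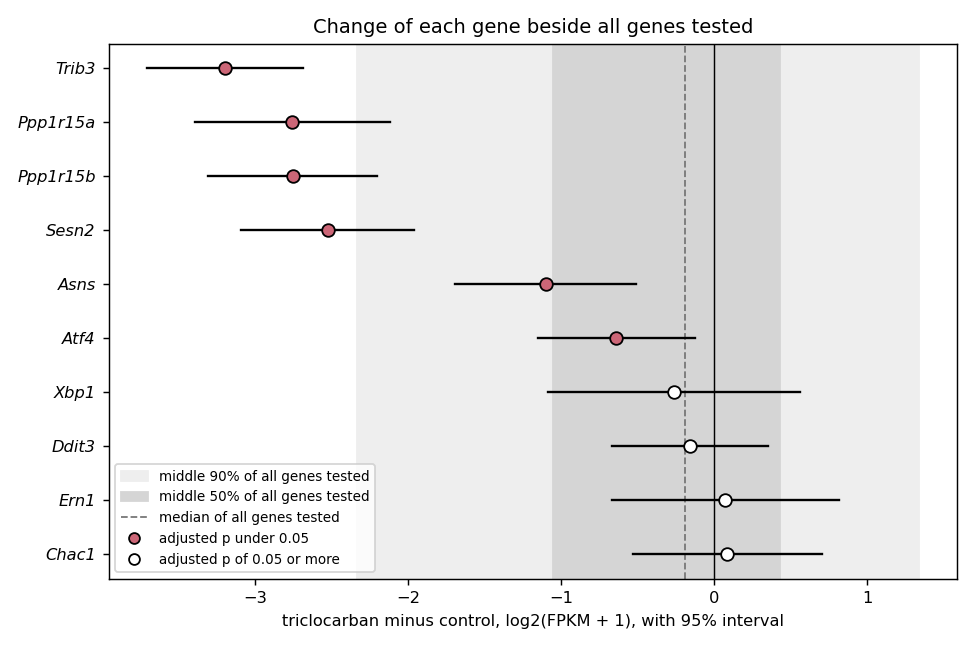
Triclocarban minus control on the log2(FPKM + 1) scale for each of the 10 genes, with the 95% interval of the limma fit. Filled points passed the threshold, grey bands hold the middle 50 and 90% of all genes tested, and the dashed line is their median of -0.19. The 4 deepest falls, of Trib3, Ppp1r15a, Ppp1r15b and Sesn2 at -3.20 to -2.53, lie outside the wider band, and Atf4 at -0.64 lies inside the narrower one.

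The order of the 10 genes by mean FPKM differed between the groups. In controls it was Atf4 at 130.6, Ppp1r15a at 60.4, Ddit3 at 31.7, then Ppp1r15b and Trib3 at 23.7 each, Sesn2 at 18.5 and Ern1 at 17.0, followed by Asns, Chac1 and Xbp1 at 1.90, 1.89 and 1.85. Neighbours in this order whose libraries overlapped were Ppp1r15b and Trib3, Sesn2 and Ern1, and the 3 last. With triclocarban, Atf4 at 84.8 stayed first and Ddit3 at 28.5 and Ern1 at 18.8, which overlapped, came next. Ppp1r15a followed at 8.26, clear of its neighbours. Ppp1r15b, Sesn2, Chac1, Trib3 and Xbp1 lay at 2.63 to 1.27 and overlapped from one to the next, and the values of Asns, at 0.98 or less, overlapped with those of Xbp1.

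Promoter sequences are shown for the members that held one of the motifs searched, since they set Trib3, the member that fell most, beside Chac1, which did not pass the threshold. The table of RefSeq promoters (GRCm38.p6, 250 bases before to 50 after the start site) held 9 of the 10 genes, all but Ppp1r15b. Positions count from the RefSeq start sites. For Trib3, Asns and Chac1 these are not the starts of the gene spans given above. The motifs were TGATGNAA, the core of the C/EBP-ATF response element that ATF4 dimers bind, TGACGTCA, the cAMP response element, TGACGTGG, an element that XBP1 binds, and CCAAT followed after 9 bases by CCACG, the ER stress response element. Both strands were searched, and TGACGTCA and TGACGTGG share their first 6 letters. TGATGNAA was found in 3 of the 9 promoters and in 3.97% of all 32851 promoters of this length, and TGACGTCA in 1 of the 9 and in 1.79% of all. Neither of the other motifs, present in 0.676 and 0.119% of all promoters, was found in the 9. Sequences run 5′ to 3′ on the strand of the gene, with the match in capitals.

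Trib3, chr2:152344011-152344310, minus strand, TGATGNAA on the opposite strand from base 15 after the start site: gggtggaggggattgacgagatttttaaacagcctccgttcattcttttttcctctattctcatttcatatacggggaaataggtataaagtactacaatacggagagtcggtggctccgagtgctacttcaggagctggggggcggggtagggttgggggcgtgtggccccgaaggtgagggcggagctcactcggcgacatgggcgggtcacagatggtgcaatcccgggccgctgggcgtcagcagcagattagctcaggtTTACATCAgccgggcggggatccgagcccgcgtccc
Asns, chr6:7693160-7693459, minus strand, TGATGNAA from base -23: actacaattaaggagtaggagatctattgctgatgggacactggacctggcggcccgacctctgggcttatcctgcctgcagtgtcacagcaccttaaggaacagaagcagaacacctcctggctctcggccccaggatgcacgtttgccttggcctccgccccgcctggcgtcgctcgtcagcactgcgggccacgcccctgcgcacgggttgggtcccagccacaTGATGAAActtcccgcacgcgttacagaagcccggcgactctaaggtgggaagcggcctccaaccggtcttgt
Chac1, chr2:119350992-119351291, plus strand, TGATGNAA on the opposite strand from base -193: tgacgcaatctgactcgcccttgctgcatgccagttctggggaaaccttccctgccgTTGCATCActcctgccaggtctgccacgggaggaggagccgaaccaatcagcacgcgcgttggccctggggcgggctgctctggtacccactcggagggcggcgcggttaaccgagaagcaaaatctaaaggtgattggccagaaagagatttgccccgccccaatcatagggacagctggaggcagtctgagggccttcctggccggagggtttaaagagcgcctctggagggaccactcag
Ppp1r15a, chr7:45526219-45526518, minus strand, TGACGTCA from base -12: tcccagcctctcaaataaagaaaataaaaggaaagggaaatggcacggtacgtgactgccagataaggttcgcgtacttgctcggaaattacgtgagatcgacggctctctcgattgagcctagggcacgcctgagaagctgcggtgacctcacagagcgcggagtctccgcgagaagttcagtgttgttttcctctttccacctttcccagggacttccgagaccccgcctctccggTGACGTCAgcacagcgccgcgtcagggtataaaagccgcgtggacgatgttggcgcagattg

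The 3 genes with TGATGNAA were Trib3 at a log2 change of -3.20, Asns at -1.10 and Chac1 at 0.09, so the match was found both in promoters of genes that fell and in that of a gene that did not pass. Sesn2, at -2.53, had no match in this window, nor had Atf4, Ddit3, Xbp1 or Ern1. A match is a description of letters and does not show that a factor binds there.

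Several of the 10 genes have close relatives, and a difference between relatives within a library is nearly free of the scaling between libraries where both are well above 1 FPKM. For low genes, such as Chac1, Trib1 and, with triclocarban, Trib3 and Sesn2, the added 1 leaves part of that scaling in. In 6 such pairs the difference in log2(FPKM + 1) was compared between the groups by exact permutation (two-sided, 70 possible assignments), which can give no p below 0.0286. Of the relatives, Chac2 rose and Sesn1 fell, while Sesn3 and Trib2 did not pass, and Trib1 and Atf5 were below the filter, as was Ern2. Of all genes tested, 11.3% were higher and 30.8% lower.

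Chac2, which degrades glutathione like Chac1, went from 9.01 ± 8.45 to 55.0 ± 13.2 FPKM (SD, n = 4 each), and its controls were uneven at 10.75, 20.22, 3.37 and 1.69. Of the pairs, 4 passed after adjustment with all libraries, and none did without triclocarban library 2. There the adjusted exact permutation p was 0.0857 for Chac1 and Chac2. It was 0.0571 for Sesn2 and Sesn3 and for Trib3 with Trib1 and with Trib2. In each of these 4 pairs the remaining treated values still all lay below the controls. The adjustment runs over the 6 pairs, so the p of 1 pair bears on the adjusted p of the others. The difference Chac1 minus Chac2 was -1.75, -2.57, -1.09 and -0.16 in the controls and -4.39, -5.03, -3.77 and -3.63 with the compound. All treated values were lower, by 2.81 on average (exact permutation p = 0.0286, 0.0429 after adjustment over the 6 pairs). Without triclocarban library 2 the difference was -2.54.

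Sesn1, another sestrin gene, fell from 12.1 ± 2.07 to 1.66 ± 0.82 FPKM (limma adjusted p = 0.000141), while Sesn3 was at 8.24 ± 1.67 and 6.21 ± 0.82 (SD, n = 4 each, adjusted p = 0.283). Sesn2 minus Sesn3 was 1.06, 0.89, 0.89 and 1.52 in controls and -1.13, -0.81, -1.3 and -1.12 with triclocarban, a change of sign in every library (difference -2.18, exact permutation p = 0.0286, adjusted 0.0429). Sesn2 minus Sesn1 was 0.58 ± 0.17 and 0.40 ± 0.83 (SD, n = 4 each) and overlapped between the groups (exact permutation p = 0.743). The spread of this last difference with triclocarban was wide, from -0.39 to 1.46.

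Trib2, a relative of Trib3 that did not pass, was at 13.1 ± 0.97 and 11.2 ± 2.62 FPKM (SD, n = 4 each, limma adjusted p = 0.493). Trib3 minus Trib2 was 0.88, 0.65, 0.93 and 0.78 in controls and -2.05, -2.47, -1.83 and -2.30 with triclocarban. Trib3 was thus above Trib2 in every control and below it in every treated library (difference -2.97, exact permutation p = 0.0286, adjusted 0.0429). Trib3 minus Trib1 changed by -2.73, with the same p-values, but Trib1 was low, at 0.10 to 2.00 FPKM. For the phosphatase subunits, Ppp1r15a minus Ppp1r15b averaged 1.31 ± 0.25 without and 1.31 ± 0.54 with the compound (SD, n = 4 each, exact permutation p = 1.0), with treated values from 0.81 to 2.01 around controls of 1.08 to 1.64.

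**Figure D3:**
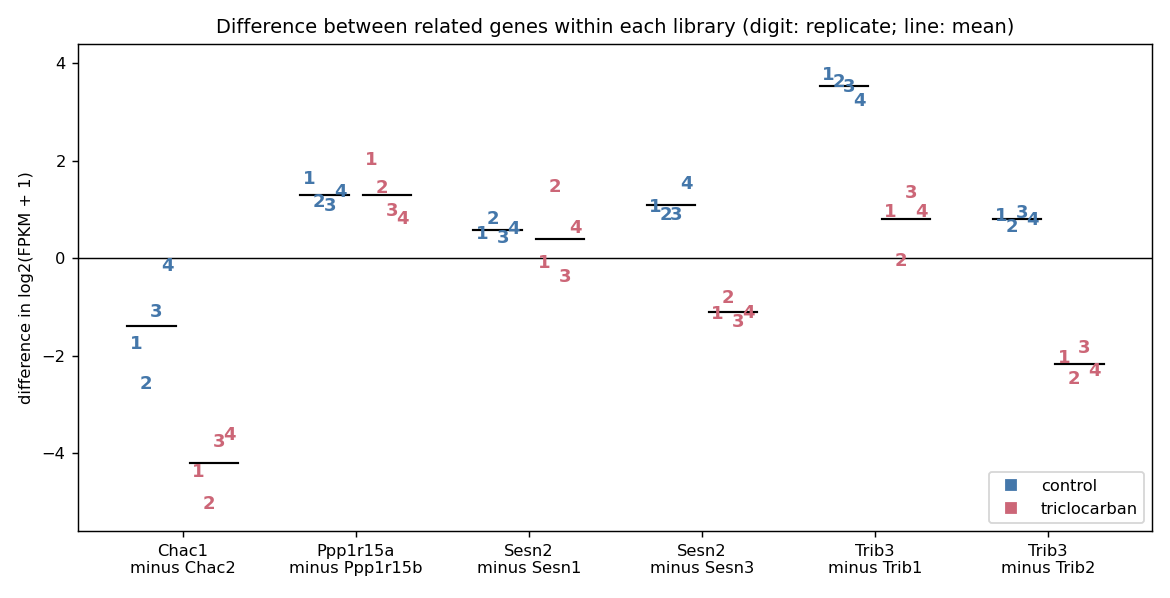
Difference in log2(FPKM + 1) between each of the genes and a relative within each library, drawn as the replicate number, with the group mean as a line. The groups are apart for Chac1 and Chac2, Sesn2 and Sesn3, and Trib3 with Trib1 and Trib2, and overlap for Ppp1r15a and Ppp1r15b and for Sesn2 and Sesn1.

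Upstream of ATF4, 3 of the 4 eIF2 alpha kinase genes were tested, and 1 of them passed and was higher, beside 11.3% of all genes tested. Eif2ak4, the gene of GCN2, the sensor of uncharged tRNA, had 11.05, 11.74, 7.98 and 8.75 FPKM in controls and 16.73, 20.76, 22.09 and 17.41 with triclocarban. All treated libraries lay above all controls, as for 10.2% of all genes tested. The log2 change was 0.90 (SE 0.24, limma adjusted p = 0.0111), and without controls 3 and 4 it was 0.70 (adjusted p = 0.0575). Eif2ak3, the gene of PERK, had 11.97, 17.93, 17.49 and 17.72 FPKM in controls and 7.67, 6.13, 17.15 and 21.63 with triclocarban. Its treated libraries were split, 1 and 2 below all controls and 3 and 4 among or above them (adjusted p = 0.38). Eif2ak1, the gene of HRI, was at 13.4 ± 1.61 and 12.6 ± 1.31 FPKM (SD, n = 4 each, adjusted p = 0.796), and Eif2ak2, the gene of PKR, was at 0.87 FPKM or less in every library and below the filter.

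Of the 8 genes for eIF2 and for eIF2B, the exchange factor that phosphorylated eIF2 inhibits, 3 were lower and 0 higher, beside 30.8 and 11.3% of all genes tested. All 3 encode eIF2B subunits. Without control 1, and without controls 1 and 2, 5 were lower, where 4043 and 4213 of all genes tested were, against 3981 with all libraries. Eif2b5, the catalytic subunit, had 9.38, 9.91, 11.81 and 13.40 FPKM in controls and 1.64, 2.96, 1.41 and 1.33 with triclocarban, a log2 change of -2.12 (limma adjusted p = 0.000145). Eif2b4 fell by 1.73 and Eif2b2 by 0.78 on the log2 scale, the last not in median-of-ratios scaling (-0.51, adjusted p = 0.111) or quantile normalization (-0.38, adjusted p = 0.215). Leaving out control 3 (adjusted p = 0.0605) or triclocarban library 1 (adjusted p = 0.0593) also lost it. Of 7 tested partners of the kinases and the phosphatase, Ppp1cc alone passed, and it was lower. None of 4 tested bZIP factors that pair with ATF4 or CHOP passed in limma, adjusted or not. With quantile normalization or without controls 1 and 2, 1 of them was higher. With no filter, where genes below it were fitted too, 1 gene of the list was lower. Of the 4 tested, Cebpb had the smallest p, at 1.28 ± 0.81 and 2.10 ± 0.78 FPKM (SD, n = 4 each, limma adjusted p = 0.205). Cebpa, below the filter and picked after its values were seen, had 0.82 to 3.05 FPKM in controls and 0.03 to 0.20 with triclocarban.

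Downstream, of 10 tested amino acid synthesis genes that ATF4 targets, 3 were lower and 1 higher, near the 30.8 and 11.3% of all genes tested, and the list's median log2 change was -0.23, beside -0.19 for all genes tested. Psat1, which makes phosphoserine, had 51.43, 43.36, 62.14 and 98.24 FPKM in controls and 8.02, 5.19, 11.34 and 8.21 with triclocarban, well apart (log2 change -2.79, limma adjusted p = 9.37e-05). Gpt2, an alanine transaminase, fell by 0.79 (adjusted p = 0.0161), but not in median-of-ratios scaling (-0.51, adjusted p = 0.105), quantile normalization (-0.38, adjusted p = 0.196), or without triclocarban library 3 (adjusted p = 0.0528) or 4 (adjusted p = 0.0549). Cth, which makes cysteine from cystathionine, rose from 129.1 ± 29.2 to 278.0 ± 53.2 FPKM (SD, n = 4 each, adjusted p = 0.00572). With either scaling the split was 1 lower and 1 higher, and without controls 1 and 2 it was 3 and 4. Of all genes tested, 2637 to 2915 were higher in these settings, against the 1466 given above.

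Amino acid transporter genes were lower in 3 of 7 tested, and 0 were higher, beside 30.8 and 11.3% of all genes tested, with a median of -0.28. With either scaling 1 was higher, and without controls 1 and 2, 2 were. There, too, 2637 to 2915 of all genes tested were higher, against the 1466 given above. Slc7a5, a subunit of a leucine transporter, had 4.30, 8.16, 9.85 and 8.31 FPKM in controls and 1.17, 2.48, 1.13 and 2.27 with triclocarban (limma adjusted p = 0.00128, log2 change -1.64). Slc1a4, a carrier of alanine and serine, had 2.09 to 4.86 FPKM in controls and 0.13 to 0.60 with triclocarban (adjusted p = 0.000423). It passed the filter only through the controls and so had to differ. Slc1a5, a glutamine carrier, had 8.26, 10.08, 28.55 and 31.45 FPKM in controls and 0.78, 0.48, 2.60 and 5.59 with triclocarban (adjusted p = 0.00232), with libraries 3 and 4 the higher ones in both groups. The cystine carrier gene Slc7a11, named after its values were seen, was among the 4 that did not pass.

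Among other targets of ATF4 and CHOP, 4 of 10 tested were lower and 0 higher, beside 30.8 and 11.3% of all genes tested, with a median of -0.68. In quantile normalization 4 were lower and 2 higher, beside 2847 and 2915 of all genes tested. Ero1l, an oxidase of the ER that CHOP induces, had 8.88, 10.73, 8.85 and 6.98 FPKM in controls and 1.10, 0.51, 2.06 and 1.33 with triclocarban (limma adjusted p = 0.000157, log2 change -2.16). Gadd45a, a growth arrest gene, fell from 19.9 ± 7.02 to 4.31 ± 1.28 FPKM (SD, n = 4 each, adjusted p = 0.000466). Map1lc3b, which encodes the autophagosome protein LC3B, fell from 496.1 ± 245.8 to 54.7 ± 18.3 FPKM (adjusted p = 0.000202). The secreted stress factors Gdf15 and Fgf21, named after their values were seen, were low, and Gdf15 was below the filter.

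ER folding genes were lower in 11 of 19 tested and higher in 0, beside 30.8 and 11.3% of all genes tested. Their median log2 change was -0.88, beside -0.19 for all genes tested. The count was 8 lower and 0 higher under either other scaling. Over all genes tested it was 3187 lower and 2637 higher with median-of-ratios scaling, and 2847 and 2915 with quantile normalization. P4hb, a protein disulfide isomerase, had 55.88, 39.24, 79.50 and 64.25 FPKM in controls and 9.28, 3.39, 8.68 and 4.45 with triclocarban (limma adjusted p = 8.70e-05, log2 change -3.08). Dnajb9, an ER co-chaperone that XBP1 induces and that binds IRE1, had 355.96, 350.17, 576.02 and 594.57 FPKM in controls and 92.37, 47.68, 121.21 and 88.13 with triclocarban (adjusted p = 0.000215, log2 change -2.44). Dnajb11 fell from 28.1 ± 5.54 to 6.77 ± 1.58 FPKM (SD, n = 4 each, adjusted p = 0.000212). Hspa5, the gene of the master ER chaperone BiP, was picked after its values were seen: it had 114.21, 109.55, 184.77 and 132.44 FPKM in controls and 44.22, 51.42, 48.50 and 48.03 with triclocarban (adjusted p = 0.000802). The 8 folding genes that did not pass included Calr, Canx and Hsp90b1, also picked afterwards.

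Sensors and regulators of ER stress were lower in 4 of 9 tested and higher in 0, beside 30.8 and 11.3% of all genes tested. The split was 4 lower and 3 higher with median-of-ratios scaling, 3 and 1 with quantile normalization, and 5 and 2 without controls 1 and 2. In these settings 2637 to 2915 of all genes tested were higher, against the 1466 given above. Traf2, an adaptor that IRE1 recruits, had 8.06, 7.43, 10.04 and 9.97 FPKM in controls and 0.43, 0.53, 0.51 and 0.72 with triclocarban (limma adjusted p = 3.45e-05, log2 change -2.67), a 16.2-fold lower mean. Traf2 and Atf6b, another of the 4 and picked after its values were seen, reached 1 FPKM in no treated library, passed the filter only through the controls and so had to differ. Mbtps1, the protease that makes the first cut in ATF6, fell by 1.33, and the membrane-bound factor Creb3 by 1.45 on the log2 scale. For ER-associated degradation, 5 of 20 tested were lower and 1 higher, no more than the 30.8 and 11.3% of all genes tested, with a median of -0.18. With median-of-ratios scaling 3 were lower, where 3187 of all genes tested were, against 3981. Selenos, a selenoprotein of the ER membrane, fell from 468.9 ± 252.2 to 27.1 ± 6.62 FPKM (SD, n = 4 each, adjusted p = 5.95e-05), with controls 1 and 2 at 201.03 and 306.47 and controls 3 and 4 at 694.30 and 673.63. Faf2 fell by 2.93, and Vcp, the extracting ATPase, by 1.35. The 1 higher gene, named after its values were seen, was the ubiquitin ligase Rnf5. Without controls 1 and 2, 4 were higher, and without controls 3 and 4, 0 were, where 2838 and 695 of all genes tested were higher.

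Of 12 tested genes for entry into the ER, 4 were lower and 3 higher, beside 30.8 and 11.3% of all genes tested. The split was 3 lower and 5 higher with median-of-ratios scaling or 3 and 4 with quantile normalization. Over all genes tested it was 3187 lower and 2637 higher, or 2847 and 2915. Sec61a1, the channel subunit, fell by 1.53, and of the signal peptidase genes Spcs3 fell by 1.33 and Spcs1 rose by 1.73 on the log2 scale (limma adjusted p = 0.000884, 0.000541 and 0.002). Spcs3 passed the filter only through the controls and so had to differ. Of 10 tested genes of the mitochondrial stress response, 3 were lower and 2 higher, near the 30.8 and 11.3% of all genes tested. The split was 3 lower and 4 higher with median-of-ratios scaling, or 3 and 3 with quantile normalization. The splits over all genes in these scalings are those just given. The lower ones were Clpp, Clpx and Yme1l1 at -3.16, -2.05 and -1.64. The higher ones were the chaperonin gene Hspe1 and Oma1, the protease that relays mitochondrial stress to HRI.

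**Figure D4:**
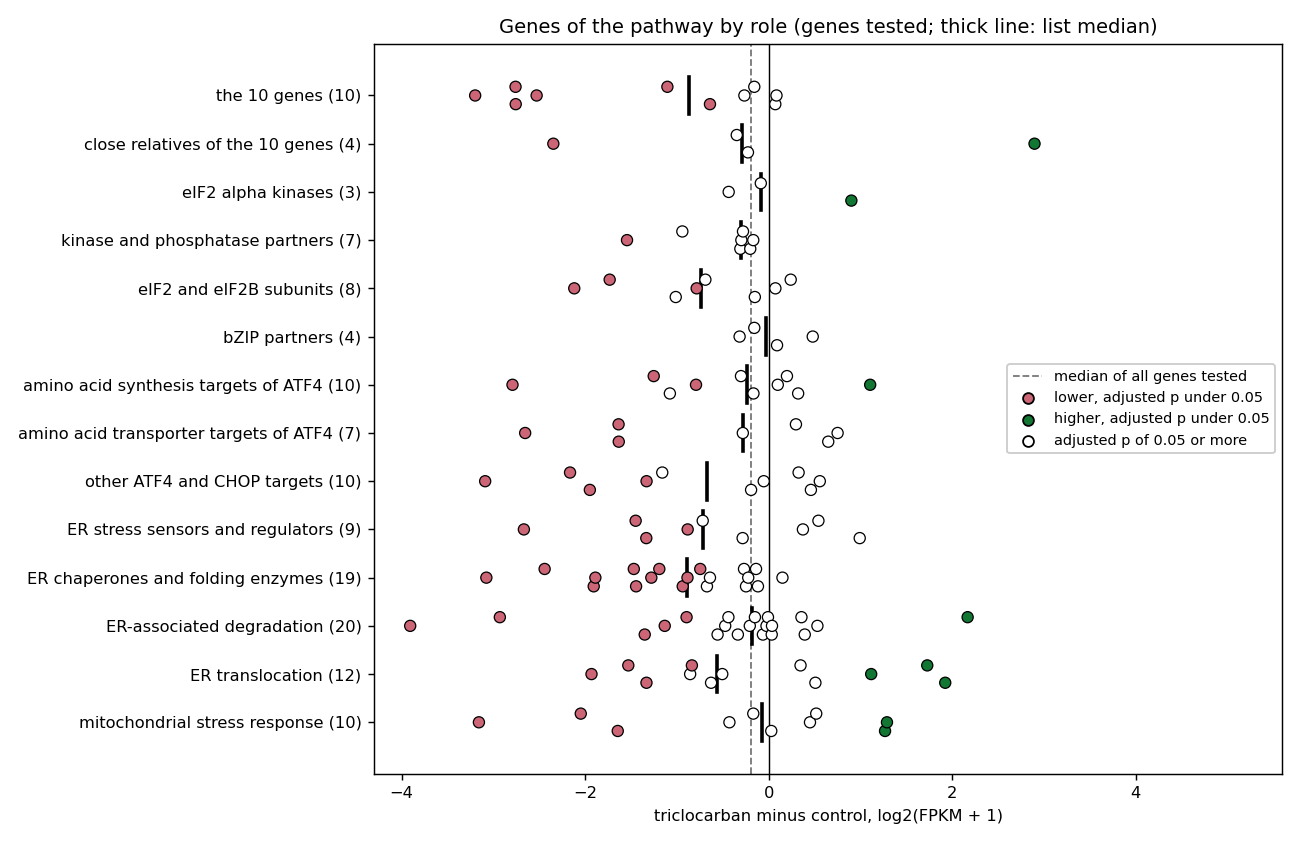
Triclocarban minus control on the log2(FPKM + 1) scale for each tested gene of the pathway, by role, with the number tested in brackets. Filled points passed the threshold, thick lines are list medians and the dashed line is the median of all genes tested at -0.19. The 19 ER folding genes have a median of -0.88 and no gene past the threshold on the higher side, and the median of the 20 degradation genes is -0.18.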

How the data were processed

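RNA of 8 libraries was read from both ends, 150 bases each, per the labels' protocols. The deposited table holds 1 column of FPKM per library, computed by the authors. The submitters' processing notes name STAR, StringTie, featureCounts, DESeq2 1.30.1 and mm10 without roles. Which tool gave the FPKM, with which annotation and strand setting, is not given in the sources used here. Raw counts were not used here. Multiplied by GENCODE M21 exon lengths, 6.82 to 9.72% of low values came within 0.02 of whole fragments (4% by chance), so no counts were recovered, depths are rough and no count test was run.

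Symbols and 1-based coordinates came from GENCODE M21 (GRCm38, the assembly of mm10), which matched 87.4% of identifiers, 33.5% in the same version. Genes reaching 1 FPKM in 4 or more libraries were fitted with limma 3.58.1 (R 4.3.3, eBayes with trend) on log2(FPKM + 1), with treatment as the only term and Benjamini-Hochberg adjustment over the 12941 genes tested. This scale understates changes of low genes. The fit was tested on simulated data. Pairs of relatives were compared by exact permutation tests. Tables were made with Python 3.11.15 and pandas 2.3.3. The members and the 13 other gene lists were chosen with earlier results of these data known. All members, their relatives and the kinases are named, and from each other list up to 3 genes past the threshold with the smallest adjusted p, or else the gene with the smallest p. A few others are named as chosen after their values were seen.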

Additional observations from a re-analysis of the deposited data

Results flagged for a closer look

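In 32 groups of 4 values (10 genes and 6 pairs of relatives, in 2 groups of libraries), 2 held a library far from the other 3, where chance flags about 1 group in 20. Trib3 in triclocarban library 4 was at 1.3 FPKM, below the 1.78 to 1.88 of the other treated libraries, a small gap beside the controls at 20.75 FPKM or more. Chac1 in triclocarban library 2 was at 0.96 FPKM, below the 2.34 to 2.47 of the other treated libraries. Without that library the log2 change of Chac1 was 0.29, and it did not pass the threshold there either.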

How the results depend on the processing

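Trib3, Sesn2, Ppp1r15a and Ppp1r15b were lower in all 20 alternatives. Of 912 values of 46 named genes under alternatives, 870 kept direction and side of the threshold, 24 lost the call, 2 gained it and 16 reversed, all 16 of genes without a call: with median-of-ratios scaling Ddit3 (0.14), Trib2 (0.059) and Eif2ak1 (0.20); with quantile normalization Ddit3 (0.13), Xbp1 (0.13), Sesn3 (0.071), Trib2 (0.18) and Eif2ak1 (0.31); with library weights Ern1 (-0.27); and without controls 3 and 4 Chac1 (-0.25) and Ern1 (-0.27). Leaving out 1 library gave ranges of -0.065 to 0.286 for Chac1, -0.477 to 0.026 for Xbp1 and -0.22 to 0.24 for Ern1.

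Over all genes, 2492 were lower with a filter of 5 FPKM, where 8050 were tested. The number higher was 2637 with median-of-ratios scaling, 2915 with quantile normalization, 2838 without controls 1 and 2, 695 without controls 3 and 4, and 953 to 1860 without 1 library (953 without control 4, 971 without control 3). The number of the 10 genes called lower was 4 with quantile normalization and without controls 3 and 4, where 2847 and 3243 of all genes tested were lower. It was 5 with median-of-ratios scaling, with nuclear genes only, with a filter of 5 FPKM and without controls 1 and 2. In these settings 3187, 4040, 2492 and 4213 of all genes tested were lower. Without 1 library it was 5 or 6, where 3469 to 4180 of all genes tested were lower.

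Among pairs, Ppp1r15a minus Ppp1r15b was 0.22 and Sesn2 minus Sesn1 0.002 with a pseudocount of 0.1. With a pseudocount of 5 they were -0.408 and -0.3 (exact permutation, adjusted p = 0.137 and 0.171). The 4 pairs that passed did so at either pseudocount. From 0.1 to 5, Chac1 minus Chac2 went from -3.025 to -2.235 and Sesn2 minus Sesn3 from -2.533 to -1.428. Trib3 minus Trib1 went from -2.462 to -1.974 and Trib3 minus Trib2 from -3.495 to -1.929. Without controls 1 and 2 the differences were -3.58 (Chac1 and Chac2), 0.088 (Ppp1r15a and Ppp1r15b), -2.30 (Sesn2 and Sesn3), -2.57 (Trib3 and Trib1) and -3.02 (Trib3 and Trib2), and without controls 3 and 4 they were -2.05, for Chac1 and Chac2, then -2.07, -2.89 and -2.93 for the last 3. An exact test of 2 against 4 libraries cannot pass the threshold. Without 1 library the ranges were -3.20 to -2.40 (Chac1 and Chac2), -0.24 to 0.17 (Ppp1r15a and Ppp1r15b), -0.536 to 0.081 (Sesn2 and Sesn1), -2.27 to -2.04 (Sesn2 and Sesn3), -2.92 to -2.45 (Trib3 and Trib1) and -3.08 to -2.87 (Trib3 and Trib2), and only without triclocarban library 2 did the 4 calls fail, at adjusted p of 0.0571 to 0.0857 (exact permutation). The treated values of these 4 pairs still all lay below the controls there. The cause of the shifts in the differences was not tested.

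The replicate numbers were not taken to pair the libraries, since not every correlation of same-numbered libraries' deviations was over 0.1 (0.338, 0.053, 0.095 and 0.104). All were positive, and triclocarban libraries 1, 3 and 4 correlated best with their own number, library 2 with control 4, a hint from the data and not the design. With the replicate block 4061 genes were lower and 1544 higher, and 5 of the 10 genes were lower, all but Atf4 of the 6. Depth is known only roughly, so values near 1 FPKM, as of Asns, Chac1 and Xbp1, have no counting interval.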
